A study of Mus musculus with 6 samples.

Results

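The genes described here build the primary cilium, the antenna-like organelle on which vertebrate cells receive the hedgehog signal, and carry cargo along it. They were chosen by symbol: every gene named Ift or Bbs followed by a number, and a list of 20 further genes for motors, small GTPases, transition zone proteins and the EvC complex. Of the 18193 genes measured by a probe set with a single symbol, 39 were members: 14 Ift genes, 8 Bbs genes and 17 of the 20 listed. Arl13b, Arl6 and Rpgrip1l were not analysed here. RNA came from neuralized embryoid bodies, which are floating aggregates of mouse embryonic stem cells grown so that they turn towards neural fates. The Ag1.3 group held 3 cultures, treated for 3 days, after 2 days in suspension, with 50 nM of the Smoothened agonist Ag1.3 on top of 500 nM all-trans retinoic acid (RA). The RA group held 3 cultures with 500 nM RA alone over the same days. All 6 cultures came from 1 stem cell line and carried a FLAG-tagged Gli1 transgene driven by the Rosa26 promoter; both groups share it. The series' design text describes paired parallel cultures, and same-numbered cultures were taken as the pairs.

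A cilium is built by intraflagellar transport, in which trains of IFT proteins move along microtubules. IFT-B trains travel outward with kinesin motors, IFT-A and the ciliary dynein bring cargo back, and the BBSome moves membrane proteins out of the cilium, while the transition zone at the base acts as a gate. In vertebrates, Smoothened enters the cilium when hedgehog signalling is on, Gli proteins pass through the ciliary tip, and loss of IFT in the mouse neural tube disturbs ventral patterning. Many cilium genes are targets of RFX transcription factors, which bind a promoter element called the X-box.

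Values are deposited probe set intensities on a linear scale from 1 array per culture, with means ± SD over the 3 arrays of a group. Fold changes are Ag1.3 over RA on the scale of log2(intensity + 16), tested with limma with the pair as a block, and p-values were adjusted over the 18193 genes by the Benjamini-Hochberg method, with 0.05 as the threshold. Array medians were 48.8 to 52.6 on Ag1.3 arrays and 48.7 to 51.9 on RA arrays. Control probe sets without a matching spike lay between 4.02 and 20.7, and intensities in that range were taken as background. As a check of the agonist, Ptch1, the hedgehog receptor and a target of the pathway, averaged 3424 ± 596 on Ag1.3 arrays and 1482 ± 473 on RA arrays (log2 fold change 1.23, adjusted p = 0.0235); it kept its sign but missed the threshold when any 1 pair was left out. Gli1 averaged 331 ± 71.2 on Ag1.3 arrays and 139 ± 62.8 on RA arrays, a log2 fold change of 1.21 that missed the threshold (adjusted p = 0.0791). Gli1 passed with a pseudocount of 64, with an intensity trend, among genes above the median intensity and with scaling to the spikes. Both groups carry the Gli1 transgene, and whether the Gli1 probe set also reads its RNA was not tested. Over all genes 252 passed, 195 higher (1.07%) and 57 lower (0.313%) with Ag1.3. All 7 neural progenitor markers read above background on every array, and 0 of the 7 passed the threshold.

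No cilium gene passed the test with limma: 0 of the 39 were past the threshold, where 1.39% of all genes did. Every member was detected: all 39 lay above the highest background control on every array, from 27.3 to 1425. The share of all genes above that control on every array was not counted. A mean above that of the median probe set was seen in 36 of the 39. Of all 18193 genes, each read by its brightest probe set, 11441 had such a mean. Differences were small, from -0.34 for Ift74 to 0.22 for Kif3b on the log2 scale, with a median of -0.04 against -0.01 over all genes. There were 24 members lower and 15 higher in the estimate, where 9437 of all 18193 genes were lower and 8756 higher. At an unadjusted limma p under 0.05 there were 3 members, Ift74, B9d1 and Evc, all lower, which is 7.69% of members. Over all genes 14.9% were under that p, 7.68% lower and 7.24% higher, so the share of members that were lower was near the background. Adjusted p-values of the members ran from 0.232 to 0.994. In bulk samples a change in the number of ciliated cells and a change in RNA per cell cannot be told apart.

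With the array levels taken as deposited, the intervals give the range of each gene's change, on a scale that understates changes of dim genes. The 95% interval of the log2 fold change lay within 2-fold either way for 39 of the 39 members, against 98.4% of all genes. It lay within 1.5-fold for 38 members, against 89.6% of all genes. The lowest bound was -0.61 and the highest 0.44. The smallest log2 fold change of any gene that passed the threshold was 0.50 in size, larger than that of any member. The median standard error of a member was 0.09 on the log2 scale, and that over all genes was 0.09.

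**Figure D1:**
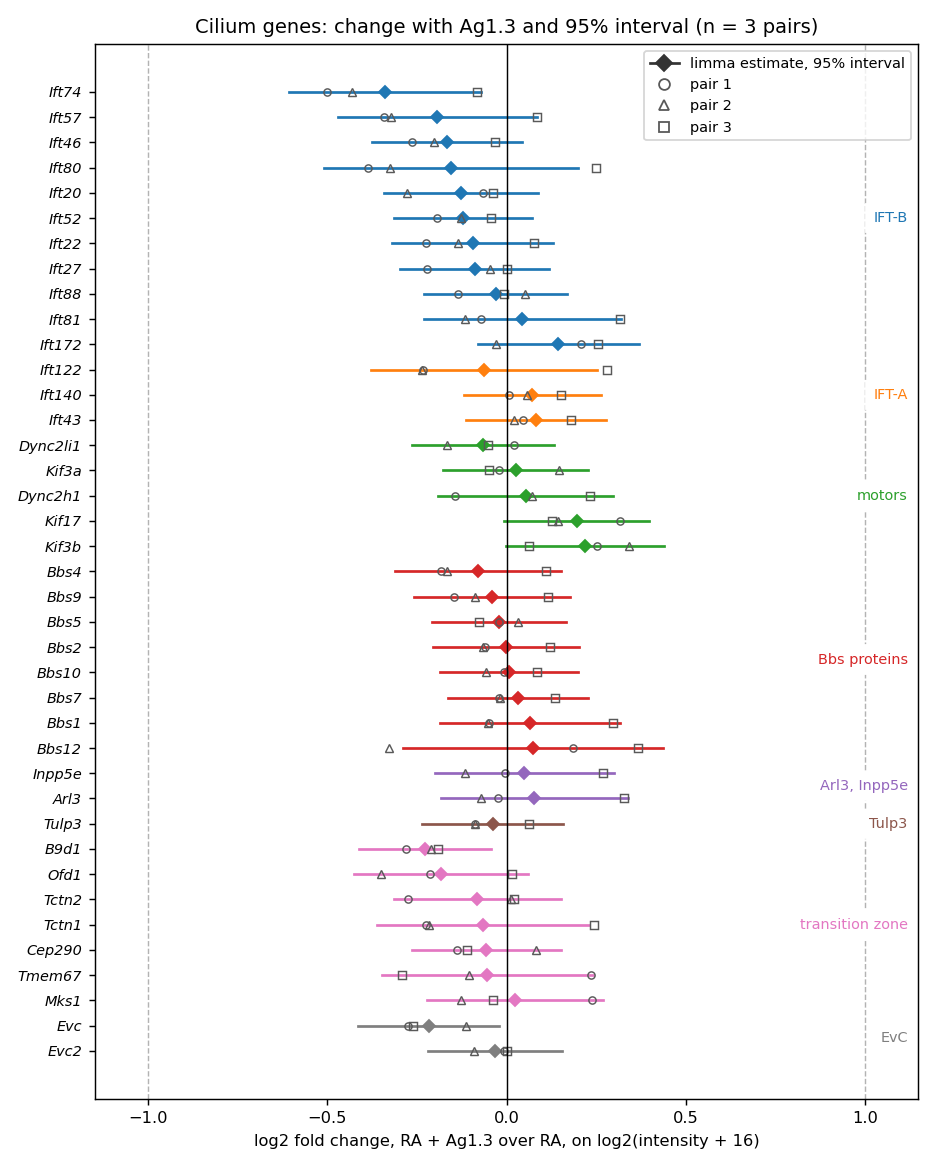
Log2 fold change of each of the 39 cilium genes, Ag1.3 over RA, grouped by role. Diamonds are limma estimates with 95% intervals, open symbols are the values of pairs 1, 2 and 3, and dashed lines mark 2-fold; all intervals lie inside those lines, and 3 of them, for Ift74, B9d1 and Evc, do not cross 0.

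The RefSeq promoter windows of the members (GRCm38.p6, 250 bases before to 50 after the gene's start) were searched for the X-box. Of the 39 members 34 were matched to a window, and Ift80, Ift81, Ift122, Dync2li1 and Tmem67 were not. An X-box form, searched as GTNNCCNGGNAAC, GTNNCCNNGGNAAC or GTNNCCNNNGGNAAC on both strands, lay in 8 of the 34 (23.5%), against 2.49% of 27025 genes with a window and 3.03% of the 14368 of them on the array. A shorter motif, GTTGCC on either strand, which is 1 spelling of the form's first 6 bases and overlaps it in some windows, lay in 16 of the 34 (47.1%), against 14.1% of all windows. The 10 matches to the longer form are printed on the strand of the gene with the match in capitals, since the form was more frequent in member windows than in all windows.
Ift57, chr16:49699200-49699227, + strand: gggtctgGTTGCCGTGGTGACcggctgc
Ift57, chr16:49699227-49699253, + strand: ccctgcgGTTGCCTGGTAACggtgggg
Ift22, chr5:136908080-136908107, + strand: tgtcaggGTTTCCTGGGCTACtgcgcag
Ift22, chr5:136908110-136908137, + strand: gttcccgGTCGCCGTGGAAACtgaccag
Bbs1, chr19:4906606-4906633, - strand: tgagctgGTTGCCAAGGCGACgcctggg
Bbs4, chr9:59353465-59353492, - strand: tcagctgGTCGCCCGGGAAACggtcggc
Bbs7, chr3:36613490-36613517, - strand: cgccccgGTTGCCTTGGAAACcggccag
Mks1, chr11:87853184-87853211, + strand: cgtctccGTTGCCAGGGGAACgaggcac
Tctn1, chr5:122264411-122264431, - strand: tgtgactGTTGCCCGGGCAAC
Tctn2, chr5:124598680-124598707, + strand: attggagGTTACCATGGCTACtggtcct
The 8 genes with these matches had log2 fold changes from -0.19 to 0.07 with a median of -0.07, 5 of them lower, and the 26 members with a window and no match had a median of -0.03. A match describes letters in the window and was not tested as a binding site.

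Among the 11 IFT-B genes, 9 were lower and 2 higher in the estimate, with a median log2 fold change of -0.12. In pairs 1 and 2, 10 of the 11 were lower in each, while in pair 3 there were 5 lower and 6 higher with a median of 0.00. Of all 18193 genes, 9320, 10608 and 8128 were lower in pairs 1, 2 and 3. Ift74, which together with Ift81 binds tubulin as cargo, read 424, 387 and 350.4 on Ag1.3 arrays 1 to 3, against 608, 528 and 372 on RA arrays 1 to 3. It was lower with Ag1.3 in each pair, but the difference was slight in pair 3, and RA array 3 lay inside the range of the Ag1.3 arrays. Its means were 387 ± 36.8 on Ag1.3 arrays and 503 ± 120 on RA arrays, a log2 fold change of -0.34 (SE 0.11, 95% interval -0.61 to -0.07, adjusted p = 0.232). Of all genes, 3.81% had a lower fold change. Without pair 3 its log2 fold change was -0.47 (adjusted p = 0.136). Its partner Ift81 read 305, 302 and 277 on Ag1.3 arrays, against 322, 329 and 219 on RA arrays, and its log2 fold change was 0.04 (adjusted p = 0.901), or -0.093 without pair 3.

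Ift46, a core subunit that helps to hold the IFT-B complex together, read 444, 453 and 476 on Ag1.3 arrays, against 536, 524 and 488 on RA arrays. All Ag1.3 arrays were below all RA arrays, and the log2 fold change was -0.17 (SE 0.08, adjusted p = 0.438). Ift20, which also works at the Golgi, read 99.6, 97.8 and 130.2 on Ag1.3 arrays, against 105, 122 and 134 on RA arrays. Every pair was lower with Ag1.3, yet the groups overlapped widely, and the log2 fold change was -0.13 (adjusted p = 0.571).

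Ift57, whose promoter window holds a pair of the X-box matches printed above, read 161, 180.0 and 212 on Ag1.3 arrays, against 209, 229 and 199 on RA arrays. It was lower in pairs 1 and 2 and higher in pair 3, with a log2 fold change of -0.19 (adjusted p = 0.500), or -0.33 without pair 3 and -0.12 without pair 1. The remaining members were Ift80 (-0.15), the core subunit Ift52 (-0.12), the small GTPases Ift22 (-0.10) and Ift27 (-0.09), Ift88 (-0.03), whose loss blocks cilium assembly in the mouse, and Ift172 (0.14). The Ift27 probe set is of a type that can also bind transcripts of other genes.

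Of the 3 IFT-A genes, 2 were higher and 1 lower in the estimate, with a median of 0.07. Ift43 read 339, 322 and 398 on Ag1.3 arrays, against 328, 318 and 349.5 on RA arrays. It was higher in each pair by a small margin, with a log2 fold change of 0.08 (adjusted p = 0.704). Ift140, a core IFT-A subunit, read 199, 204 and 171 on Ag1.3 arrays, against 198, 195 and 152 on RA arrays. It was higher in each pair, while the ranges of the groups overlapped widely, and the log2 fold change was 0.07 (adjusted p = 0.736). Ift122 had a log2 fold change of -0.06.

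Among the 5 motor genes, 4 were higher and 1 lower in the estimate, with a median of 0.05. Kif3b, a subunit of the kinesin that pulls IFT-B trains, read 196, 209 and 188 on Ag1.3 arrays, against 162, 162 and 179.6 on RA arrays. All Ag1.3 arrays were above all RA arrays, the means being 198 ± 10.7 with Ag1.3 and 168 ± 10.2 with RA alone. The log2 fold change was 0.22 (SE 0.09, adjusted p = 0.336), the highest of all members, but it was not shared by the gene's other probe sets, described below. Kif3a, the other motor subunit of the same kinesin, had a log2 fold change of 0.03.

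Kif17, an accessory kinesin known from olfactory and other cilia, read 158, 239 and 194 on Ag1.3 arrays, against 124, 215 and 176 on RA arrays. It was higher in each pair, while the spread between pairs was larger than the difference with Ag1.3, and the log2 fold change was 0.20 (SE 0.08, adjusted p = 0.348). The other Kif17 probe set above background had a log2 fold change of 0.06, and the mean of all its probe sets gave 0.066. Dync2li1, a light intermediate chain of the dynein that runs back to the base, read 419, 401 and 392 on Ag1.3 arrays, against 413, 452 and 407 on RA arrays. It was lower in pairs 2 and 3 and slightly higher in pair 1, with -0.17 in pair 2 (log2 fold change over all pairs -0.07, adjusted p = 0.768), and the heavy chain Dync2h1 had a log2 fold change of 0.05.

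The 8 Bbs genes split into 4 lower and 4 higher, with a median of 0.00 and a range from -0.08 to 0.07. Most of them encode BBSome subunits, and Bbs10 and Bbs12 encode chaperonin-like proteins that assemble it. Bbs4 read 128, 138 and 158 on Ag1.3 arrays, against 148, 157 and 145 on RA arrays. It was lower in pairs 1 and 2 and higher in pair 3 (log2 fold change -0.08, adjusted p = 0.758). The other subunits were Bbs9 (-0.04), Bbs5 (-0.02), Bbs2 (-0.00), Bbs7 (0.03) and Bbs1 (0.07), and the assembly factors were Bbs10 (0.01) and Bbs12 (0.07). Bbs1, Bbs4 and Bbs7 are the Bbs genes with an X-box form in the windows printed above.

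Genes of ciliary membrane content did not pass either. Arl3, a small GTPase that releases lipid-tethered cargo inside the cilium, was the brightest member and read 1368, 1357 and 1359 on Ag1.3 arrays, against 1390.2, 1425 and 1080.1 on RA arrays. The Ag1.3 arrays lay close together, and RA array 3 was the lowest of all (log2 fold change 0.08, adjusted p = 0.798). Without pair 3 the log2 fold change of Arl3 was -0.047. Inpp5e, a phosphatase that sets the phosphoinositide content of the ciliary membrane, had a log2 fold change of 0.05. Tulp3, an adaptor that brings receptors such as Gpr161 into the cilium and limits hedgehog signalling in the mouse neural tube, read 209.7, 196 and 257 on Ag1.3 arrays, against 224, 209 and 245 on RA arrays. The groups overlapped, and the log2 fold change was -0.04 (adjusted p = 0.872).

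Of the 7 genes of the transition zone and basal body, 6 were lower and 1 higher, with a median of -0.07. B9d1, a transition zone protein whose loss disturbs ciliary gating, read 187, 180.3 and 168 on Ag1.3 arrays, against 231, 211 and 194 on RA arrays. It was lower in each pair by a similar amount, and all Ag1.3 arrays were below all RA arrays. Means were 178 ± 10.1 with Ag1.3 and 212 ± 18.7 with RA alone, a log2 fold change of -0.23 (SE 0.07, 95% interval -0.41 to -0.04, adjusted p = 0.244). Ofd1, a protein of the distal centriole, read 225, 189 and 259.7 on Ag1.3 arrays, against 263, 246 and 257 on RA arrays. Here the groups overlapped through Ag1.3 array 3 (log2 fold change -0.18, adjusted p = 0.465). The others were Tctn2 (-0.08), Tctn1 (-0.07), Cep290 (-0.06), Tmem67 (-0.05) and Mks1 (0.02), of which Tctn1, Tctn2 and Mks1 hold an X-box form.

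Evc and Evc2 form the complex at the base of the cilium that binds active Smoothened and passes the signal towards the Gli proteins. Evc read 44.0, 38.4 and 30.04 on Ag1.3 arrays, against 56.5, 42.9 and 39.2 on RA arrays. It was lower in each pair, at intensities close to those of the dimmest members, and the groups overlapped. Means were 37.5 ± 7.01 with Ag1.3 and 46.2 ± 9.12 with RA alone, a log2 fold change of -0.22 (SE 0.08, 95% interval -0.41 to -0.02, adjusted p = 0.290). Evc2 read 128, 93.8 and 109 on Ag1.3 arrays, against 129, 101 and 109 on RA arrays. The partners of each pair were nearly equal, and the log2 fold change was -0.03 (adjusted p = 0.888).

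**Figure D2:**
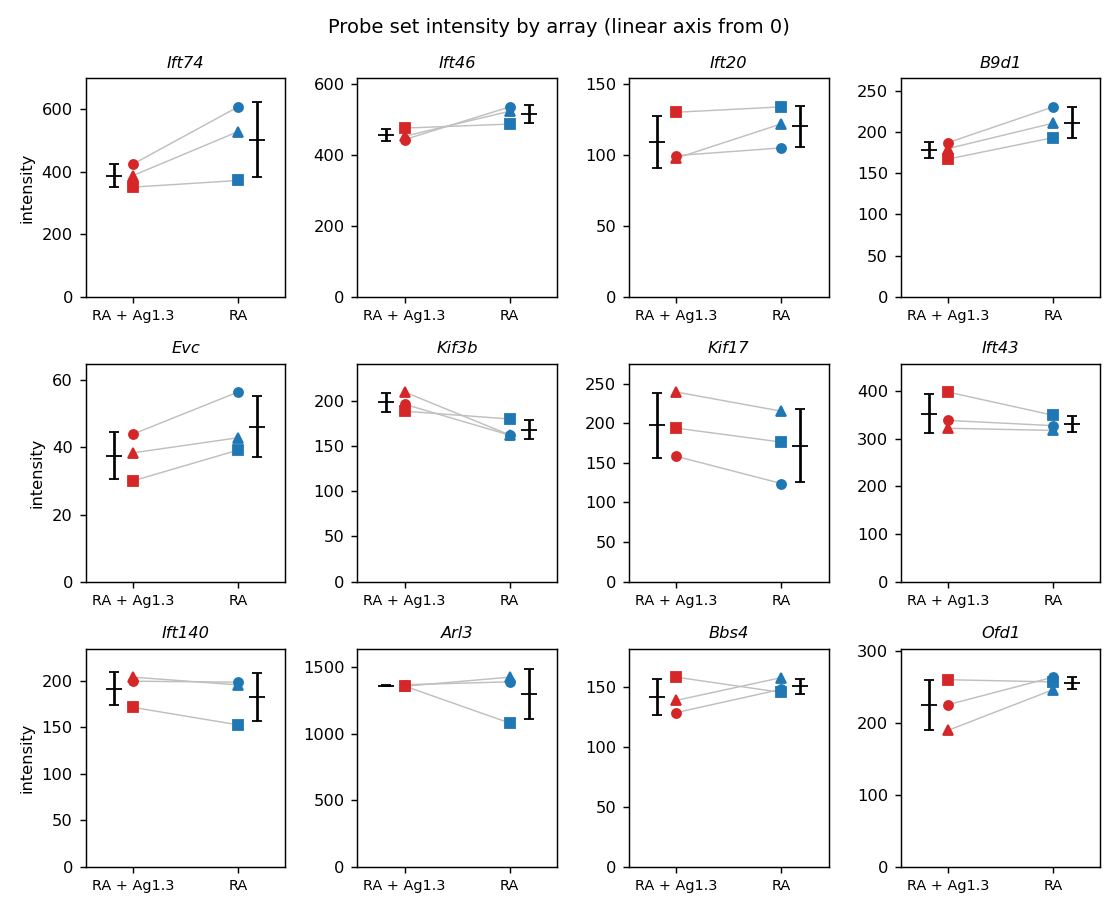
Deposited intensity on each array for Ift74, Ift46, Ift20, B9d1, Evc, Kif3b, Kif17, Ift43, Ift140, Arl3, Bbs4 and Ofd1. Ag1.3 arrays stand left of RA arrays in each panel, with lines joining same-numbered cultures. B9d1 and Ift46 lie lower and Kif3b higher on all Ag1.3 arrays than on any RA array; the other genes overlap between the groups.

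Arl3, Ift46 and Ift74 were the members with the brightest probe sets, and Tmem67, Evc and Cep290 those with the dimmest. Brightness depends on the probes as well as on the transcript, so it gives no order of transcript amounts. Groups did not overlap for 3 members (7.69%), B9d1 and Ift46 lower and Kif3b higher. Over all genes 11.8% had groups that did not overlap, 5.35% lower and 6.45% higher. The same sign in all 3 pairs was seen in 10 members (25.6%), 6 lower and 4 higher, where 36.7% of all genes had it. Of the 39 members, 14 had further probe sets, 24 in all. Of these, 16 had the sign of the chosen probe set and 8 the opposite sign, 3 lay at or below the highest background control, and 0 had an unadjusted limma p under 0.05. For Kif3b, the other probe sets had log2 fold changes of 0.03, 0.05 and -0.48, the last with intensities of 33.4, 54.4 and 19.1 on Ag1.3 arrays, against 64.2, 18.9 and 103 on RA arrays. That probe set scattered too widely to give a direction (SE 0.49).

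The differences varied between the pairs of cultures. The members' median log2 difference was -0.07 in pair 1, -0.09 in pair 2 and 0.08 in pair 3, and 30, 29 and 13 of the 39 were lower with Ag1.3 in these pairs. Over all genes the medians were -0.01, -0.04 and 0.02, and 9320, 10608 and 8128 of the 18193 were lower in pairs 1, 2 and 3. There were 18 members (46.2%) lower in pairs 1 and 2 and higher in pair 3, where 17.1% of all genes had this pattern. In 26 members (66.7%) RA array 3 was the lowest of the RA arrays, where this held for 37.8% of all genes. Set against the average of RA arrays 1 and 2, RA array 3 differed by -0.13 on the log2 scale in the median member and was lower in 27 of the 39. For all genes the median was -0.0049, and 9261 of the 18193 were lower. In the same comparison RA array 3 was also lower in 8 of 8 neuron markers (median -0.56). It was lower in 6 of 7 neural progenitor markers (-0.67) and in 4 of 4 dorsal progenitor markers (-1.38). For pluripotent cells 0 of 5 markers were lower (0.51), and 0 of 5 were for floor plate (0.47) and for motor neurons (0.17). For endoderm 1 of 5 were lower (0.63), for mesoderm 1 of 3 (0.31) and for cycling cells 4 of 5 (-0.06). For motile ciliated cells 5 of 10 were lower (-0.01). On Ag1.3 array 3, the median member differed from the other Ag1.3 arrays by -0.01, the neuron markers by -0.40 and the pluripotency markers by 0.89. There the motor neuron markers differed by -0.39, the neural progenitor markers by -0.26 and the floor plate markers by 0.38. The part of these marker differences in the members' values was not tested. Unadjusted limma p-values under 0.05 were seen in 0 members without pair 1 (8.68% of all genes), in 1 (2.56%) without pair 2 (10.9% of all genes) and in 8 (20.5%) without pair 3 (16.7% of all genes). Of those 8 without pair 3, 7 were lower, which is 17.9% of members against 9.47% of all genes, and Kif3b was higher (0.30). None of these 3 fits took a member past the threshold, and the members' median without pair 3 was -0.07.

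**Figure D3:**
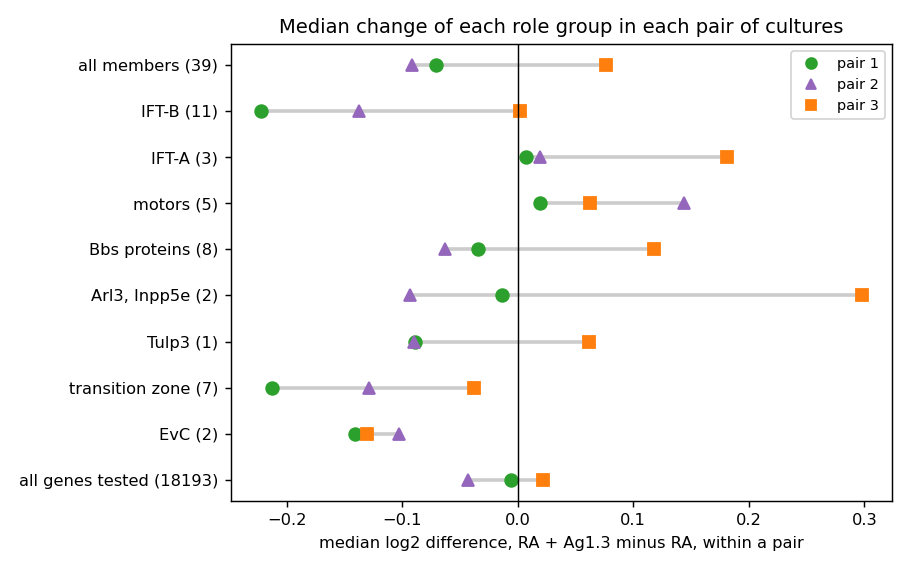
Median log2 difference, Ag1.3 minus RA, in each pair for each role group of the cilium genes, for all members and for all genes. The medians of all members are -0.07, -0.09 and 0.08 in pairs 1, 2 and 3, and IFT-B genes stand lowest in pair 1 at -0.22.

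Further cilium genes outside the symbol rule were read from the same test. Of 19 IFT and BBSome genes under other symbols, 0 passed the threshold, and the median log2 fold change was -0.02. Wdr34, a chain of the ciliary dynein, had the smallest p of them (121, 137 and 149 on Ag1.3 arrays, against 167, 146 and 203 on RA arrays) with a log2 fold change of -0.31 and an adjusted p of 0.240. Of 19 further transition zone and ciliopathy genes 0 passed, with a median of -0.05. Intu, which acts in building cilia, was the lowest p there (log2 fold change -0.28, adjusted p = 0.327). Of 24 genes of centrioles and ciliogenesis 0 passed, and 0 had an unadjusted limma p under 0.05. Of 17 genes listed for tubulins, their modification and the ciliary membrane 0 passed. The smallest p there was that of Tubb2a, itself a tubulin, at 0.63 (adjusted p = 0.0856).

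The RFX factors, which bind the X-box, did not pass the threshold either, with 0 of 6. Rfx4, which is expressed in neural tube, read 901, 655 and 628 on Ag1.3 arrays, against 808, 662 and 285 on RA arrays. RA array 3 was the lowest of all, and the log2 fold change was 0.41 (SE 0.22, adjusted p = 0.469), or 0.070 without pair 3 and 0.63 without pair 2. Rfx3 read 332, 324 and 317 on Ag1.3 arrays, against 313, 317 and 200.3 on RA arrays, with a log2 fold change of 0.25 (adjusted p = 0.478). It was 0.058 for Rfx3 without pair 3 and 0.0012 with the mean of its probe sets. Rfx5, known for its role in immune gene expression, had the smallest p of the 6, with a log2 fold change of -0.32 (adjusted p = 0.211). Of 26 genes of motile cilia 0 passed and 6 had an unadjusted limma p under 0.05, 3 lower and 3 higher, where 14.9% of all genes did. The smallest p-values were those of Ccdc40 at -0.43 (adjusted p = 0.0907) and Cfap126 at 0.34 (adjusted p = 0.131). Foxj1, the master factor of motile cilia, averaged 13.8 ± 4.41 on Ag1.3 arrays and 14.5 ± 2.32 on RA arrays, within the range of the background controls.

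Among 21 listed genes of the hedgehog pathway, 5 passed the threshold, 3 higher and 2 lower. Smo, the target of the agonist, averaged 563 ± 129 on Ag1.3 arrays and 581 ± 114 on RA arrays (log2 fold change -0.05, adjusted p = 0.814). Kif7 (-0.09), Sufu (0.06) and Gpr161 (0.03) did not pass. The genes that rose were Ptch1, Rab34 (0.65) and Arrb1 (0.60), and those that fell were the hedgehog co-receptor Gas1 (-1.57) and Gli3 (-1.17). Rab34, a small GTPase that takes part in cilium formation, averaged 936 ± 166 on Ag1.3 arrays and 586 ± 56.6 on RA arrays (adjusted p = 0.0368). Without pair 1, 2 or 3 neither Ptch1, Rab34 nor Arrb1 passed, and Gli3 did not without pair 1 or pair 2, each with its sign kept, while Gas1 passed each time. With no pair as a block, none of these 5 genes passed. Of the neuron markers 6 of 8 rose with Ag1.3 (median 1.06), as did 3 of 5 floor plate markers and 4 of 5 motor neuron markers, where 1.07% of all genes rose. Of the dorsal progenitor markers 3 of 4 fell, and of the pluripotency markers 1 of 5, where 0.313% of all genes fell. Of the endoderm markers 1 of 5 fell, Sox17 (log2 fold change -1.21). Summed over the 8 neuron markers, intensity was 4078 to 6146 on Ag1.3 arrays and 1566 to 2513 on RA arrays. The part of these marker changes in the cilium values was not tested.

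**Figure D4:**
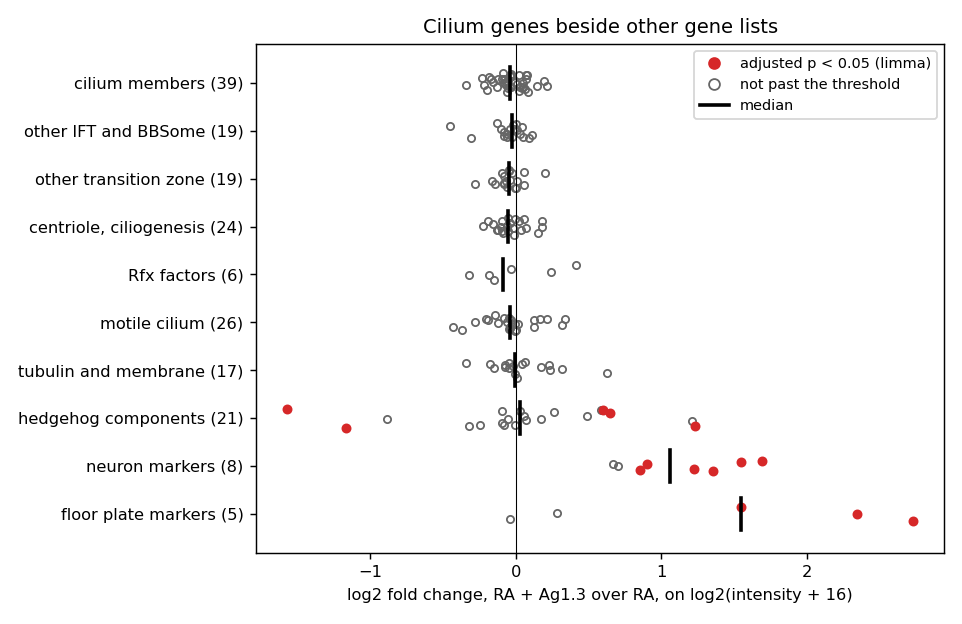
Log2 fold change, Ag1.3 over RA, of each gene in the cilium set, in other cilium lists, among hedgehog components and among neuron and floor plate markers, with bars at the medians. Filled points passed the adjusted threshold of 0.05; none lie among the 39 cilium members, and the hedgehog list spans -1.57 to 1.23.

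The overall level of the arrays bears on differences of this size. On Ag1.3 arrays the hybridization spikes exceeded those on RA arrays by 0.19 (log2) in the group means, but unevenly. Their mean log2 level was 9.89, 9.92 and 9.98 on Ag1.3 arrays 1 to 3. On RA arrays 1 to 3 it was 9.59, 9.84 and 9.78, lowest on RA array 1. As deposited, RA array 1 was also the highest array for Ift74 and B9d1. Scaled to the spikes, the median of all genes moved to -0.16, that of the members to -0.20, and calls over all genes to 287 higher and 1399 lower, against 195 and 57 as deposited. With that scaling 9.27% of all genes passed, 7.69% lower. There 2 members (5.13%) passed, both lower, Ift74 (-0.52, adjusted p = 0.0188) and B9d1 (-0.41, adjusted p = 0.0369).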

How the data were processed

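Intensities were analysed as deposited by the authors, on a linear scale with 1 value per probe set and array. RNA was labelled as biotin cRNA with a 3' IVT kit, per the labels' protocols. How probes were summarised and arrays scaled is not given in the sources used here. Each of 18193 genes with a single platform symbol was represented by the probe set with the highest mean of log2(intensity + 16) over 6 arrays. Of 45037 probe sets, 932 with several symbols and 9160 not listed were left out. All 39 member identifiers matched RefSeq. The test was limma's (version 3.58.1, R 4.3.3; lmFit, eBayes; two-sided; replicate number as a block), as the series' design text describes parallel cultures, and the code was tested on simulated data. Deviations from the group mean correlated at 0.74, 0.33 and 0.73 for same-numbered arrays, against -0.70 to 0.18 for others. Such deviations cancel within a group, so positive values for same-numbered arrays push the others negative by construction. The p-values and standard errors rest on the spread between 3 pairs of cultures of 1 line. In eBayes each gene's variance is moderated towards a value estimated over all genes, so they do not reflect that gene's pairs alone. The members, gene lists, motifs and tests were chosen with earlier results of these data known. Of members with 1 sign in all pairs, array values are given for the 5 lowest and, of up to 5 highest, the 4 there were, and for the brightest of each role, with Ift57, Ift81, Rfx3, Smo, Rab34 and Arrb1 added after their values were seen. Other lists give the smallest p-values. Alternatives changed the pseudocount, block, variance trend, filter, scaling, probe set choice and replicates.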

Additional observations from a re-analysis of the deposited data

How the results depend on the processing

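The count of all genes past the threshold was 252. It was 0 with a pseudocount of 1 (2411 at an unadjusted limma p under 0.05), 831 with a pseudocount of 64, 891 with an intensity trend, 950 among genes above the median intensity, 1686 with scaling to the spikes and 35 to 62 without one of the replicates. Without the replicate block it was 86, with 0 cilium members. The count of cilium members was 0 under every alternative run except scaling to the spikes, where it was 2, and 0 to 0 without each replicate. The members' median of -0.04 ranged from -0.07 to 0.01 without each replicate and was -0.20 with scaling to the spikes. That scaling moved the median of all genes from -0.0070 as deposited to -0.16, so by construction it turned small positive values, Arl3 to -0.11, Ift140 to -0.10, Ift43 to -0.10 and Ift81 to -0.14. Arl3 ranged from -0.047 to 0.15 and Ift81 from -0.093 to 0.12 without each replicate. The mean of all probe sets turned Kif3b to -0.047 and Tulp3 to 0.073. The cause of the shifts with probe set choice or a replicate left out was not tested. Ptch1, Gas1, Gli3, Rab34 and Arrb1 did not pass with a pseudocount of 1 or without the block. Adjusted p for Gli1 was 0.0199 with a pseudocount of 64, 0.00721 with a trend, 0.00968 above the median intensity and 0.00299 with the spikes. With 3 pairs, the number of arrays limits what could be resolved.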
